A study of Homo sapiens with 4 samples.

Results

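The genes of the cytoplasmic translation initiation and elongation factors were compared between Elf1 cells grown in 2-D and in 3-D culture. They were taken as every protein-coding gene whose GENCODE symbol starts with EIF or EEF, which gave 72 of the 60564 genes counted in each library. Of these, 67 had enough reads to be tested. The group holds subunits of the initiation complexes, the elongation factors, and the kinases, inhibitors and methyltransferases that carry the same symbols.

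In the first step of translation, eIF2 brings the initiator tRNA to the small ribosomal subunit, where eIF1, eIF1A, eIF3 and eIF5 assemble the preinitiation complex. The complex is recruited to the capped 5′ end of an mRNA by eIF4F, made of the cap-binding protein eIF4E, the scaffold eIF4G and the helicase eIF4A, and it scans to the start codon, where eIF5B joins the large subunit. eEF1A then delivers each aminoacyl-tRNA and eEF2 moves the ribosome along the mRNA. Stress kinases and the 4E-BP proteins are known brakes. The kinases phosphorylate eIF2 so that it traps its exchange factor eIF2B, and the 4E-BPs hold eIF4E until mTORC1 phosphorylates them. Many mRNAs of elongation factors begin with a 5′ terminal oligopyrimidine (TOP) tract, which ties their translation to mTORC1.

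Elf1 is a naïve human embryonic stem cell line derived from a single early embryo. The 2-D group was grown adherent on plastic coated with Matrigel after removal from mouse feeder cells, in the same expansion medium as the other group. The 3-D group was dissociated to single cells, enclosed in self-assembling PEG-8-SH/PEG-8-Acr polyethylene glycol scaffolds and kept there for 21 days. Each group had 2 libraries of ribosomal RNA-depleted total RNA, described as independent biological replicates, all from this 1 line.

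Total counts were 33833778 and 30114220 for the 2-D pair against 21154409 and 18276147 for the 3-D pair, so the 2-D libraries were the deeper. Mitochondrially encoded genes took 5.10% to 5.30% of the counts in 2-D and 8.33% to 8.50% in 3-D. With library sizes taken without them, the same translation factor genes were called, 9 higher and 5 lower. Their part in the results was not tested otherwise. The pluripotency genes POU5F1 (108 to 131 normalized CPM), NANOG (197 to 216) and SOX2 (214 to 258) were expressed in the 4 libraries, as were DPPA4 (669 to 729), ZFP42 (153 to 165), TFCP2L1 (22.1 to 23.8) and DNMT3L (14.5 to 17.8). KLF17 and DPPA5, which mark the naïve state, stood at or near 0 (at most 1.07 and 0.130 normalized CPM). Of 7 fibroblast markers, COL1A1, COL3A1, POSTN and THY1 were called higher in 3-D, DCN and LUM stayed under 1 CPM, and COL1A2 was not called (324 and 316 in 2-D, 300.1 and 324 in 3-D). The summed level of the list ran from 524 to 532 in 2-D and from 544 to 592 in 3-D. The part of these markers in the results was not tested. The summed endoderm (8.0 to 9.91), mesoderm (66.0 to 71.2), neural (585 to 611) and trophoblast (2.41 to 3.12) markers held no called gene. In bulk RNA, fewer cells of a type and less RNA per cell cannot be told apart.

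The first transcribed bases of several of these genes carry the TOP tract, and they are shown because the elongation factors that were higher in 3-D begin with it, while most other called genes with a listed start do not. Each line gives the 10 bases before the RefSeq start and the 20 bases from it, on the strand of the gene, in GRCh38.p14. Capitals mark a tract: a C at the first transcribed base with pyrimidines after it, at least 5 bases in an unbroken run.
EEF1A1 (chr6:73521013-73521042, minus strand): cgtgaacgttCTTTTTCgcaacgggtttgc
EEF2 (chr19:3985444-3985473, minus strand): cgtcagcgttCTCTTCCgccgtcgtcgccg
EEF1B2 (chr2:206159885-206159914, plus strand): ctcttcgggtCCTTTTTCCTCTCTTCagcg
EIF4B (chr12:53006446-53006475, plus strand): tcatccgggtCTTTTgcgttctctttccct
EIF4A2 (chr3:186783567-186783596, plus strand): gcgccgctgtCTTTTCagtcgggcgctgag
EIF2S3 (chrX:24054946-24054975, plus strand): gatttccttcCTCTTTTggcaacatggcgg
EIF2S3B (chr12:10505880-10505909, plus strand): gactttcttcCTCTTTTggcaacatggcgg
EIF4A3 (chr17:80147109-80147138, minus strand): cggcagcggcacagcgaggtcggcagcggc
EIF1 (chr17:41688875-41688904, plus strand): ccgcccctctgccccagtcactgagccgcc
The last 2 lines are genes called lower with no tract, for comparison. Of the tested genes with a listed start and no tract, 4 were called higher (EIF3C, EIF4G1, EIF4G3 and EIF5B) and 3 lower. Of 57 genes of the group with a start outside chromosomes 8 and Y, 13 carried the tract. EIF2S3B is a retrocopy of EIF2S3, and their windows carry the same 7-base tract. Such a tract was read, on the transcript strand alone, at 4.07% of all 35116 listed starts.

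Taken over the 67 tested genes, the difference between the culture conditions was small and ran in both directions. A gene was called where edgeR's quasi-likelihood test gave a Benjamini-Hochberg adjusted p below 0.05 over the 22555 genes tested. By that rule 9 of 67 (13.4%) were higher in 3-D, against 4.54% of all genes tested, and 5 (7.46%) were lower, against 3.36%. Of the 14305 protein-coding genes tested, 5.89% were called higher and 4.10% lower. Both 3-D libraries lay above both 2-D libraries for 26 of the 67, against 25.4% of all genes tested, and below them for 16, against 25.1%. Of the 14305 protein-coding genes tested, 4147 lay above and 3647 below in this way. The median log2 fold change was 0.0093 for the 67 and -0.00013 for all genes tested, and the median size without sign was 0.069 against 0.129. For the tested protein-coding genes these medians were 0.0086 and 0.100. Scaling by library size alone, in place of the trimmed mean of M values (TMM), gave 6 higher and 9 lower genes of the group, and 514 higher and 1872 lower in all in place of 1024 and 758.

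**Figure D1:**
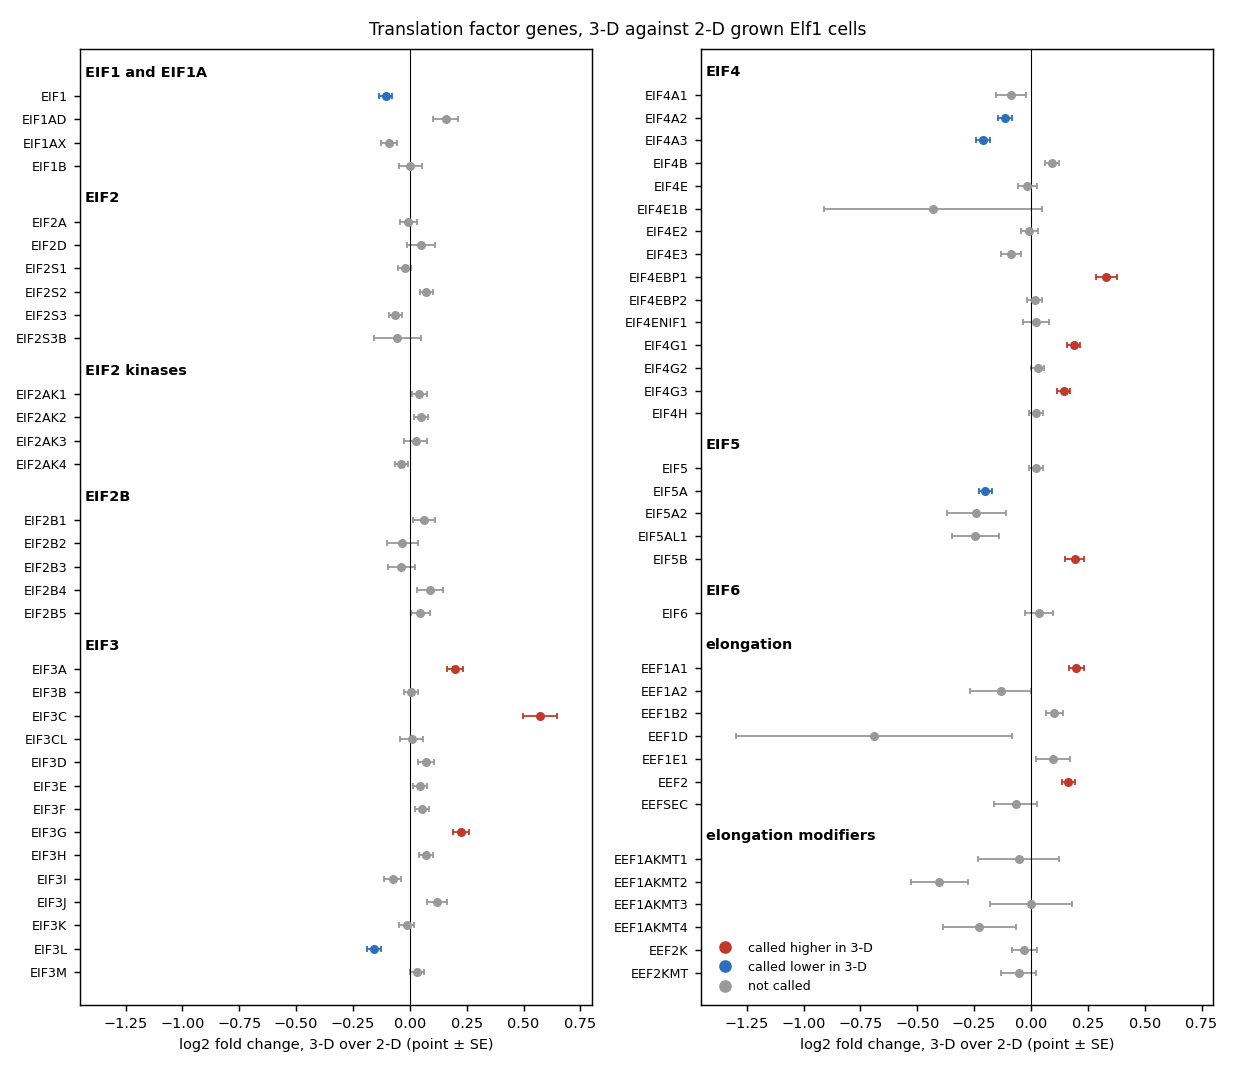
Log2 fold change of 3-D over 2-D for the 67 tested translation factor genes, by complex, with bars of 1 standard error from edgeR. The 9 genes called higher (red) fall in the EIF3, EIF4, EIF5 and elongation groups, the 5 called lower (blue) in the EIF1, EIF3, EIF4 and EIF5 groups, and EEF1D has the widest bar.

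These genes were among the more abundant in the cells. On the scale of normalized CPM per kilobase of transcript, 56 of 67 lay above the median of the tested protein-coding genes and 32 above their 90th percentile. EEF1A1 was the highest at 1748 CPM per kilobase in 2-D, followed by EEF2 at 665, EIF4G2 at 341 and EIF5A at 338, against a median of 6.31 for the tested protein-coding genes. At the low end EIF4E1B, the oocyte type of eIF4E, stood at 0.296. The genes together took 2.05% and 2.06% of all counts in 2-D against 2.08% and 2.12% in 3-D, and EEF1A1 alone made up 30.3% and 30.9% of that in 2-D and 32.2% and 33.4% in 3-D. Of the 67, 57 had at least 300 counts in every library, and the share of calls was not compared with that of genes of the same level.

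**Figure D2:**
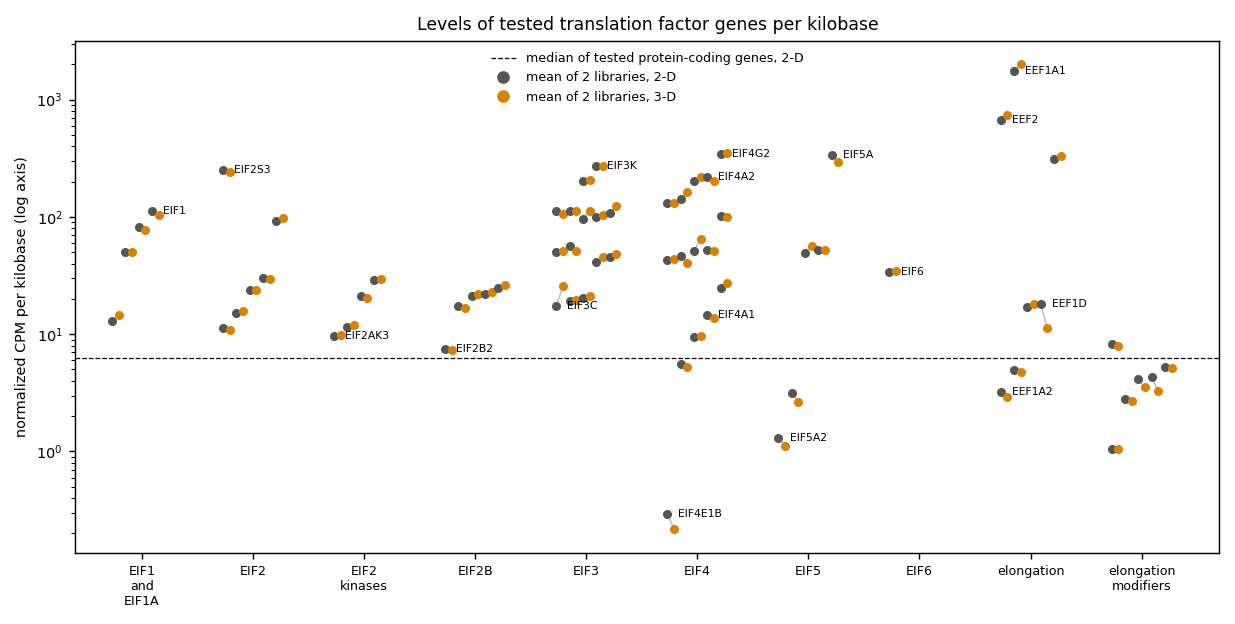
Level of each tested translation factor gene in normalized CPM per kilobase (log axis), by complex, as the mean of the 2 libraries in 2-D (grey) and in 3-D (orange); the dashed line is the median of the tested protein-coding genes in 2-D. The gap between the culture conditions is small beside the range of levels, from 0.296 for EIF4E1B to 1748 for EEF1A1 in 2-D.

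Within each complex the levels per kilobase were far from equal, and these gaps between genes were wider than those between the culture conditions. EIF2S3 (250.2 CPM per kilobase in 2-D) stood above EIF2S2 (92.7) and EIF2S1 (30.2). Among eIF3 subunits the level in 2-D ran from 17.4 for EIF3C to 272 for EIF3K. The EIF3C level is uncertain, since EIF3CL, at 19.3 in 2-D, is a near-identical copy. The 5 EIF2B genes were lower and closer together, from 7.52 for EIF2B2 to 24.5 for EIF2B4. The 6 elongation modifiers stood between 1.05 for EEF1AKMT3 and 8.17 for EEF2KMT.

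The genes named EIF1, which include factors that scan for the start codon, gave 1 call among 4 tested. EIF1 (chr17:41688885-41692668), which guards the choice of the start codon, stood at 262 and 259.9 normalized CPM in the 2-D libraries and at 240.2 and 244 in the 3-D libraries. The 2 groups did not overlap, and the gene fell by 0.11 on the log2 scale (SE 0.030, adjusted p = 0.0478, edgeR). That adjusted p was the highest of the 14 called genes: without 2-D replicate 1 the adjusted p was 0.394, without 2-D replicate 2 it was 0.33, and DESeq2 gave 0.114, the likelihood ratio test 0.286 and length and GC offsets 0.108. EIF1AX, the ribosomal A-site factor, had 355 and 367 CPM in 2-D and 328 and 350.1 in 3-D and was not called (log2 fold change -0.09, adjusted p = 0.163, edgeR), but was called lower without 3-D replicate 2 (adjusted p = 0.00292, edgeR), with library size alone (0.0216) and without a filter on low counts (0.0368). EIF1AD and EIF1B were not called either, at log2 fold changes of 0.16 and 0.0027, and the Y-linked EIF1AY was counted as a member but its values are not given.

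The eIF2 side of initiation gave no calls by the rule given above. None of the 6 tested genes under EIF2, the 4 eIF2 kinases or the 5 EIF2B subunits passed the threshold in edgeR's test. DESeq2 called 0 of these 15 genes as well, and 1 of them, EIF2S2, had an unadjusted p below 0.05 in edgeR's test. EIF2S1, the subunit that the kinases phosphorylate, had 126 and 124 CPM in 2-D and 124 and 122 in 3-D, with overlapping groups and a log2 fold change of -0.02 (SE 0.030). EIF2S2, the beta subunit, had 237 and 236 CPM in 2-D and 252 and 246 in 3-D, and EIF2S3, the GTP-binding gamma subunit, had 859.5 and 870.4 in 2-D and 833 and 822 in 3-D. These 2 subunits lay on opposite sides of 0, at log2 fold changes of 0.07 (adjusted p = 0.181, edgeR) and -0.06 (adjusted p = 0.238, edgeR), each without overlap between the groups. EIF2S2 was called higher without 3-D replicate 2 (adjusted p = 0.0331, edgeR) and with length and GC offsets (0.0274), and EIF2S3 was called lower with library size alone (log2 fold change -0.13, adjusted p = 0.0162, edgeR). EIF2A and EIF2D, which bind initiator tRNA outside eIF2, and EIF2S3B had log2 fold changes of -0.0072, 0.05 and -0.05.

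The 4 kinases that respond to different stresses all stayed within 0.05 of 0 on the log2 scale. EIF2AK1 (HRI, heme shortage) had 130.1 and 125 CPM in 2-D and 133 and 129 in 3-D. EIF2AK2 (PKR, double-stranded RNA) had 115 in both 2-D libraries and 116 and 121 in 3-D, and EIF2AK3 (PERK, endoplasmic reticulum stress) had 44.8 and 43.4 in 2-D and 45.6 and 44.2 in 3-D. EIF2AK4 (GCN2, amino acid shortage) had 117 and 116 in 2-D and 113 and 114 in 3-D. Their log2 fold changes were 0.04, 0.05, 0.03 and -0.04, with standard errors from 0.030 to 0.050, and EIF2AK1 to EIF2AK3 lay below 0 when only library size was used for scaling. In the exchange factor, the catalytic EIF2B5 had 54.9 and 54.3 CPM in 2-D and 56.8 and 55.9 in 3-D, with a log2 fold change of 0.05 (SE 0.042). The other 4 subunits ran from -0.04 (EIF2B3) to 0.09 (EIF2B4), and the lowest adjusted p of the 5 was 0.415 for EIF2B4 in edgeR's test.

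The eIF3 complex, a large scaffold on the small ribosomal subunit, held 3 genes that rose and 1 that fell among 14, and the remaining 10 were not called. In all, 11 of the 14 had a log2 fold change above 0, and 6 of the 14 did when scaled by library size alone. EIF3A (chr10:119033670-119080817), the core scaffold, stood at 722 and 702 CPM in 2-D and at 841 and 793 in 3-D. Its log2 fold change was 0.20 (SE 0.035, adjusted p = 0.00392, edgeR), and without 2-D replicate 2 the adjusted p was 0.0542. EIF3G (chr19:10115014-10119918), which carries an RNA-recognition motif, had 107 and 103 CPM in 2-D and 119 and 126 in 3-D. It rose by 0.23 (SE 0.035, adjusted p = 0.00184, edgeR) and was called in all 14 alternatives and leave-outs run. EIF3L (chr22:37848868-37889407), a PCI-domain subunit, went the other way, from 153 and 149.6 CPM in 2-D to 135 and 136 in 3-D. It fell by 0.16 (SE 0.030, adjusted p = 0.00571, edgeR), and the adjusted p was 0.112 without 2-D replicate 1. A lncRNA on the same strand shares 41.1% of the EIF3L exonic bases, and its own level was 11.2 to 16.3 CPM.

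EIF3C (chr16:28688558-28735727) had the largest called difference of the group, and its reads are uncertain because EIF3CL is a near-identical copy. EIF3C stood at 51.1 and 49.9 CPM in 2-D and at 83.4 and 66.5 in 3-D, a log2 fold change of 0.57 (SE 0.075, adjusted p = 0.00068, edgeR), and the 2 libraries of 3-D differed more from each other than those of 2-D. EIF3CL had 56.2 and 56.4 CPM in 2-D and 53.7 and 59.7 in 3-D, with overlapping groups and a log2 fold change of 0.0093. The sum of the pair was 107 and 106 CPM in 2-D and 137 and 126 in 3-D, and the log2 fold change of that sum was 0.30 (adjusted p = 0.000433, edgeR). Among the other subunits the core scaffold EIF3B had 349 CPM in both 2-D libraries and 347 and 353 in 3-D. EIF3D, which can bind the cap, had 189 and 186 in 2-D and 203 and 191 in 3-D, and was not called (log2 fold change 0.07, adjusted p = 0.252, edgeR) except without 3-D replicate 2 (adjusted p = 0.0125, edgeR). The other uncalled subunits ran from -0.07 for EIF3I to 0.12 for EIF3J.

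The eIF4 group, which reads the cap, held 3 genes that rose and 2 that fell among 15 tested. EIF4G1 (chr3:184314495-184335358), the main scaffold of eIF4F, stood at 775 and 770.3 CPM in 2-D and at 871 and 889 in 3-D, a log2 fold change of 0.19 (SE 0.030, adjusted p = 0.00211, edgeR). Its homologue EIF4G3 (chr1:20806292-21177285) had 157 and 159 CPM in 2-D and 174 and 175 in 3-D, a log2 fold change of 0.14 (SE 0.029, adjusted p = 0.0103, edgeR). The groups did not overlap for either scaffold. The EIF4G3 call was lost without 2-D replicate 1 (adjusted p = 0.181), without 2-D replicate 2 (0.104), with DESeq2 (0.0523), with edgeR's likelihood ratio test (0.0713) and with library size alone (0.131), whereas EIF4G1 kept its call in all of these. EIF4G2, or DAP5, which lacks the eIF4E site, had 1294 CPM in both 2-D libraries and 1317 and 1326 in 3-D and was not called (log2 fold change 0.03, adjusted p = 0.62, edgeR).

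The inhibitors of eIF4E differed from each other. EIF4EBP1 (4E-BP1) stood at 42.5 and 42.7 CPM in 2-D and at 54.3 and 52.7 in 3-D, and both 3-D libraries were higher by about the same amount. Its log2 fold change was 0.33 (SE 0.047, adjusted p = 0.00104, edgeR), 1.26-fold, and it was called in all 14 alternatives and leave-outs. EIF4EBP2 had 318 and 329 CPM in 2-D and 330.1 and 324 in 3-D, with overlapping groups (log2 fold change 0.02, adjusted p = 0.84, edgeR). EIF4EBP3 was too low to test, at most 0.162 CPM, and 73.2% of its exonic bases are shared with the read-through gene ANKHD1-EIF4EBP3. The target of these inhibitors, EIF4E, had 125 and 127 CPM in 2-D and 131 and 118 in 3-D (log2 fold change -0.02, adjusted p = 0.888, edgeR). Its repressive homologue EIF4E2 (4EHP) had 97.8 and 97.6 in 2-D and 101 and 93.7 in 3-D. For both cap-binding genes the 3-D libraries lay on either side of the 2-D libraries.

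Of the 3 helicases of the eIF4A family, EIF4A2 and EIF4A3 fell and EIF4A1 was not called. EIF4A3 (chr17:80134369-80147151), the helicase of the exon junction complex, had 119 and 117 CPM in 2-D and 103 and 101 in 3-D, and fell by 0.21 (SE 0.031, adjusted p = 0.00136, edgeR) in a call that held in all 14 alternatives and leave-outs. EIF4A2 (chr3:186783205-186789897), an eIF4F helicase, had 410.2 and 417 CPM in 2-D and 378 and 386 in 3-D and fell by 0.12 (SE 0.030, adjusted p = 0.0353, edgeR). The EIF4A2 call was lost without either 2-D library (adjusted p = 0.225 without replicate 1 and 0.377 without replicate 2), with the likelihood ratio test (0.251) and with length and GC offsets (0.0947). EIF4A1, the other eIF4F helicase, was listed at only 26.2 and 25.5 CPM in 2-D and 23.9 and 24.8 in 3-D (log2 fold change -0.09, adjusted p = 0.52, edgeR). Its level is uncertain: 42.1% of its exonic bases lie in a lncRNA and 28.2% in the read-through gene SENP3-EIF4A1, both on the same strand, and it has 13 named copies and pseudogenes. With those copies summed, its log2 fold change was 0.03. Of the helicase cofactors, EIF4B had 786 and 782 CPM in 2-D and 841 and 831 in 3-D, without overlap but short of the threshold (log2 fold change 0.09, adjusted p = 0.0795, edgeR). DESeq2 called EIF4B higher (adjusted p = 0.0452), as did the fits without 3-D replicate 2 (adjusted p = 0.0152, edgeR) and without a filter on low counts (0.00991). An antisense gene, TNS2-AS1, overlaps 12.4% of the EIF4B exonic bases at 172 to 196 CPM, and the strand setting of the counting is not known. EIF4H, the other cofactor, was not called, at 338 and 329.6 CPM in 2-D and 339 in both 3-D libraries.

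**Figure D3:**
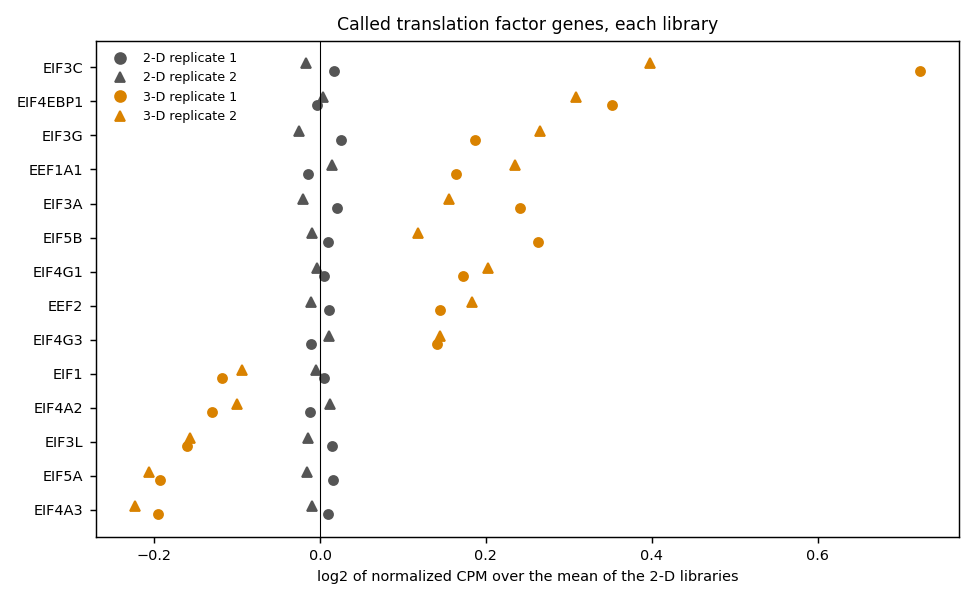
Normalized CPM of the 14 called translation factor genes in each library, as log2 of the ratio to the mean of the 2-D libraries (grey: 2-D, orange: 3-D; circles: replicate 1, triangles: replicate 2). In each gene both 3-D libraries lie on the same side of both 2-D libraries, and EIF3C, EIF3A and EIF5B show the widest gap between the 3-D libraries.

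The 5 tested genes named EIF5 are not subunits of 1 complex, and 1 rose and 1 fell. EIF5B (chr2:99337371-99401326), the GTPase that joins the ribosomal subunits, had 286 and 282 CPM in 2-D and 340.4 and 308 in 3-D, a log2 fold change of 0.19 (SE 0.041, adjusted p = 0.0131, edgeR). The 3-D libraries were farther apart than the 2-D libraries, and without 3-D replicate 1 the log2 fold change was 0.12. The adjusted p was 0.0767 without 2-D replicate 2 and 0.0577 with library size alone (edgeR). EIF5A (chr17:7306999-7312463), the hypusinated factor that helps elongation and termination, had 432 and 423 CPM in 2-D and 374 and 371 in 3-D. It fell by 0.20 (SE 0.030, adjusted p = 0.00149, edgeR) and was called in all 14 alternatives and leave-outs. Its homologue EIF5A2 (log2 fold change -0.24, SE 0.13) and the near-identical retrocopy EIF5AL1 (-0.24, SE 0.10) were low, at 5.78 to 12.4 CPM, and were not called. EIF5, which activates the GTPase of eIF2, had 294 and 298 CPM in 2-D and 297 and 303 in 3-D, with overlapping groups. EIF6, which keeps the large ribosomal subunit apart from the small one, had 34.9 and 37.9 CPM in 2-D and 36.7 and 37.9 in 3-D.

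The GTPases EEF1A1 and EEF2 rose, and no elongation factor was called lower. EEF1A1 (chr6:73489308-73525587), which delivers aminoacyl-tRNA, stood at 6078 and 6200.5 CPM in 2-D and at 6876 and 7226 in 3-D, a log2 fold change of 0.20 (SE 0.032, adjusted p = 0.00209, edgeR). EEF2 (chr19:3976056-3985463), the translocation GTPase, had 2115 and 2084 CPM in 2-D and 2320.3 and 2384 in 3-D, a log2 fold change of 0.16 (SE 0.030, adjusted p = 0.00476, edgeR). Both carry the tract printed above, and their 2 groups did not overlap. EEF1A1 was called in all 14 alternatives and leave-outs, whereas EEF2 was lost without 2-D replicate 2 (adjusted p = 0.0689), with library size alone (0.0542) and with the likelihood ratio test (0.0817). EEF1A1 has 49 named copies and pseudogenes, and the highest of them, EEF1A1P5, was called higher as well, at 450 and 428 CPM in 2-D and 585 and 565 in 3-D (log2 fold change 0.39, adjusted p = 3.08e-05, edgeR). Reads of EEF1A1 and of its copies cannot be fully told apart, and with the copies summed its log2 fold change was 0.21.

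The exchange factor of eEF1A was measured less well than its GTPases. EEF1B2, the beta subunit, had 248 and 253 CPM in 2-D and 279 and 258 in 3-D and was not called (log2 fold change 0.10, adjusted p = 0.133, edgeR). It was called higher without 3-D replicate 2 (adjusted p = 0.000512, edgeR), with length and GC offsets (0.018) and without a filter on low counts (0.0303), and its log2 fold change was 0.041 without 3-D replicate 1. EEF1D, the delta subunit, had 65.7 and 10.1 CPM in 2-D and 35.7 and 11.0 in 3-D, so that replicate 1 was higher than replicate 2 in both culture conditions. Its log2 fold change of -0.69 (SE 0.61, adjusted p = 0.582, edgeR) became 1.22 without 2-D replicate 1 (adjusted p = 0.0119) and -1.47 without 2-D replicate 2 (adjusted p = 9.48e-05), so its direction rests on 1 library. A copy of EEF1D lies on 1 contig outside the chromosomes, and a gene on the opposite strand covers 31.2% of its exonic bases. EEF1G, the gamma subunit, was listed at 0 in the 4 libraries, and 99.7% of its exonic bases are shared with another protein-coding gene on the same strand, itself at 0.583 to 1.0 CPM. EEF1A2, the neuron and muscle form of eEF1A, stood at 4.68 to 5.77 CPM (log2 fold change -0.13), EEF1E1 at 17.8 to 19.5 (0.10) and the selenocysteine factor EEFSEC at 10.2 to 11.2 (-0.07), and none was called.

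Enzymes that modify the elongation factors were low, and all 6 had log2 fold changes below 0 with no call by edgeR or DESeq2, which gave 3 of them no adjusted p, though scaling by library size alone called 1 of them lower. EEF2K, the kinase that blocks eEF2, had 38.8 and 39.6 CPM in 2-D and 38.4 and 38.5 in 3-D (log2 fold change -0.03, adjusted p = 0.826, edgeR). The largest difference was in EEF1AKMT2, a lysine methyltransferase of eEF1A, at 15.5 and 15.8 CPM in 2-D and 13.8 and 9.69 in 3-D (log2 fold change -0.40, SE 0.13, adjusted p = 0.0727, edgeR). The read-through genes EEF1AKMT4-ECE2 and EEF1E1-BLOC1S5 were listed at 0.

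The balance between paralogues was described as a share of their summed CPM per kilobase, with no test, since 2 against 2 libraries cannot give an exact permutation p below 0.333. EIF4G1 made up 28.2% and 28.0% of the EIF4G set in 2-D and 30.1% and 30.4% in 3-D, and EIF4G2 67.0% and 67.1% in 2-D and 64.8% and 64.6% in 3-D. In the inhibitors, EIF4EBP1 took 54.6% and 53.9% in 2-D and 59.7% and 59.5% in 3-D, a mean difference of 5.36 percentage points. Without division by length that difference was 2.44 points. EIF4E kept 32.2% to 33.0% of its set, with EIF4E2 at 63.4% to 64.3%. EIF1 held 69.0% and 69.2% of the EIF1 pair in 2-D and 66.4% and 68.6% in 3-D. Where 1 gene dominated, its share varied little between libraries: EEF1A1 held 99.8% to 99.9%, EIF5A 98.7% to 98.8% and EIF4A2 93.5% to 93.8%, the last with the uncertain level of EIF4A1.

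**Figure D4:**
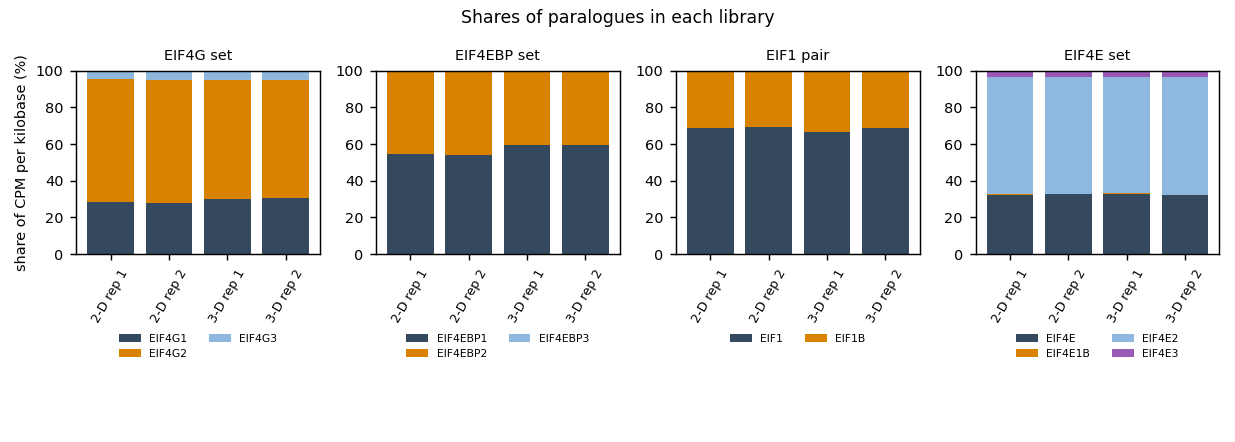
Share of each paralogue in the summed CPM per kilobase of its set, in each library, for the EIF4G, EIF4EBP, EIF1 and EIF4E sets. The EIF4EBP1 part is 54.6% and 53.9% in 2-D and 59.7% and 59.5% in 3-D, while the EIF4E set is nearly the same in the 4 libraries.

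The tract at the start of transcription was compared with the expression differences. A start outside chromosomes 8 and Y was listed for 57 of the 72 genes, and 13 of these (22.8%) had the tract at a listed start, against 7.14% of 11509 tested protein-coding genes with a listed start. Of the 13, EEF1A1 and EEF2 were called higher and EIF4A2 lower, and the median log2 fold change was 0.05. Of the 40 tested genes with no tract, 4 were called higher and 3 lower, and the median was -0.0021. Among all 822 tested protein-coding genes with the tract, 6.20% were called higher and 6.93% lower, against 5.97% and 3.95% of the 10687 with a listed start and no tract, so genes with these letters were called in both directions. In a list of 9 established TOP mRNAs of the group, 8 were tested, 7 had a log2 fold change above 0 and 2 were called, again EEF1A1 and EEF2. Of all 22555 genes tested, 11272 lay above 0. With library size alone EIF3E (-0.020) and EIF3F (-0.011), which were among the 7, lay below 0.

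**Figure D5:**
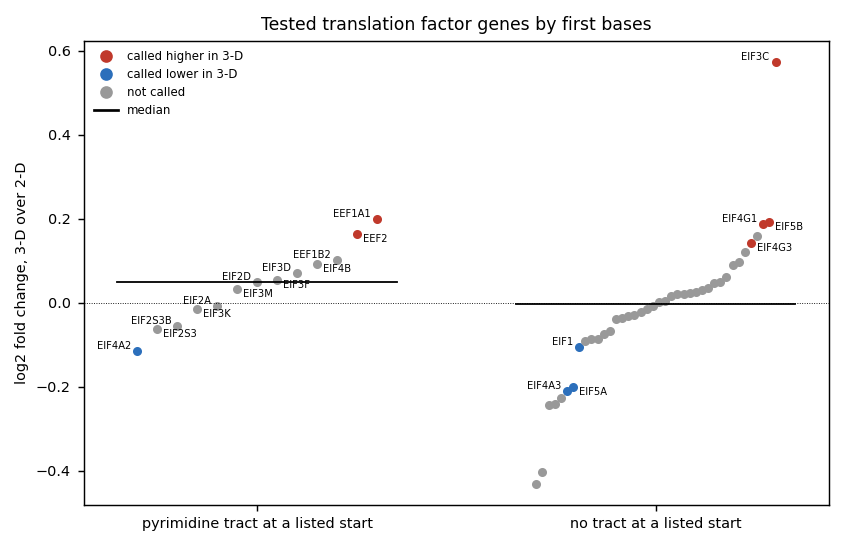
Log2 fold change of 3-D over 2-D for tested translation factor genes with (left, 13 genes) and without (right, 40 genes) a pyrimidine tract at a listed transcription start; the bars are medians and colours mark called genes. The medians are 0.05 and -0.0021, and the spread of the genes in each group is wider than the gap between them.

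Across the 67 genes the log2 fold change had a Spearman correlation of 0.39 with the mean normalized CPM, 0.11 with transcript length and -0.04 with GC content. Over the 14305 tested protein-coding genes these were 0.03, 0.05 and 0.19. They are descriptions: the genes come from the same 4 libraries and are not independent.

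The partners of these factors, in 10 lists of 82 genes that lie outside the EIF and EEF symbols, gave 7 genes called higher (8.54%) and 3 lower (3.66%), near the shares of 5.89% and 4.10% of the protein-coding genes. PABPC1, the poly(A)-binding protein that contacts eIF4G, had 1563 and 1534 CPM in 2-D and 1880.4 and 1875 in 3-D, a log2 fold change of 0.28 (adjusted p = 0.000135, edgeR). LARP1, which binds TOP mRNAs, rose by 0.12 (adjusted p = 0.0304, edgeR), a call lost with library size alone (0.327), with the likelihood ratio test (0.267) and without either 2-D library (0.284 and 0.279). Of 9 inputs from mTORC1 and the MNK kinases, the eIF4E kinase MKNK2 (0.15) and the mTOR subunit MLST8 (0.30) were called higher, and MTOR was not (0.08, adjusted p = 0.162, edgeR). DESeq2 and library size alone called neither (adjusted p = 0.197 and 0.212 for MKNK2, 0.0936 and 0.0577 for MLST8). The MKNK2 call was also lost with edgeR's likelihood ratio test (adjusted p = 0.116) and with length and GC offsets (0.191). Leaving out each library gave log2 fold changes of 0.12 to 0.17 for MKNK2 and 0.25 to 0.36 for MLST8. These ranges give sizes alone and do not show that the calls held. Of 7 partners of the eIF2 kinases, PPP1R15A (GADD34), which directs the phosphatase to eIF2, was called higher (0.26, adjusted p = 0.0478, edgeR). That call was lost with DESeq2 (adjusted p = 0.204), with library size alone (0.117), with the likelihood ratio test (0.134), with length and GC offsets (0.0769) and with at least 10 counts in every library (0.0516), and without any 1 library but 3-D replicate 2 (0.0624 to 0.367).

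Targets of the integrated stress response, which follows eIF2 phosphorylation, gave 1 call in each direction. Of the 10 targets, 7 had a log2 fold change below 0, and the median was -0.11. Both 3-D libraries lay below both 2-D libraries for 5 and above for 2, against 25.1% and 25.4% of all genes tested. The transcription factor ATF4 had 297 and 290.2 CPM in 2-D and 325 and 321 in 3-D and was called higher (log2 fold change 0.14, adjusted p = 0.0161, edgeR). The ATF4 call was lost with library size alone (adjusted p = 0.168, edgeR), with the likelihood ratio test (0.131) and without either 2-D library (0.115 and 0.286). PSAT1, a serine synthesis enzyme, had 431 and 426 in 2-D and 379 and 369 in 3-D and was called lower (-0.19, adjusted p = 0.00183, edgeR). The other 8 of the 10 targets were not called, DDIT3 (CHOP) among them at -0.40 (adjusted p = 0.0733, edgeR). Elsewhere the recycling factor ABCE1 (-0.16) and the selenophosphate synthetase SEPHS2 (-0.23) were called lower and the mitochondrial elongation factor TUFM (0.24) higher. The ABCE1 call was lost without either 2-D library (adjusted p = 0.127 and 0.095, edgeR), with the likelihood ratio test (0.074) and with length and GC offsets (0.0774), and the SEPHS2 call without 2-D replicate 1 (0.105). None of the 9 hypusine and diphthamide enzymes that modify eIF5A and eEF2 was called in edgeR's test. Nor was any of the 5 termination and rescue factors or the 11 genes listed with the multi-tRNA synthetase complex. In these lists 0, 2 and 2 genes had an unadjusted p below 0.05 in edgeR's test. Among the last was VARS1, listed beside the subunits of the complex. It stood at 1.54 and 9.94 CPM in 2-D and at 2.14 and 1.56 in 3-D, so its difference rests on 2-D replicate 2. DESeq2 called 0 in each of these lists too, and library size alone called 2 termination and rescue factors and 3 genes of the synthetase list lower.

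Pseudogenes named after the factors were counted apart. Of 155, 40 were tested. Of these, 2 (5%) were called higher (EEF1A1P5 and EIF2S2P4), against 4.54% of all genes tested. Another 4 (10%) were called lower (EEF1A1P19, EEF1DP1, EIF1AXP1 and EIF5AP4), against 3.36%. EEF1A1P19 (1.06 to 4.96 normalized CPM) and EEF1DP1 (0.167 to 0.985) were low in every library.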

How the data were processed

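Per the labels and the study's methods, the authors trimmed reads with Trim Galore 0.6.3, aligned them with HISAT2 2.1.0 to hg38 and counted them per gene with featureCounts 1.6.4 on GENCODE 30. The deposited counts are whole reads per gene, with 1 table per library. Strand and multi-mapping settings are not given in the sources used here. A second deposited table of normalized values, fold changes and p-values was not used.

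Ensembl IDs were matched to GENCODE 44 (60295 of 60564). Counts were filtered with filterByExpr, scaled by TMM and tested on condition with edgeR 4.0.16 (R 4.3.3), quasi-likelihood, Benjamini-Hochberg adjustment over all genes tested. Normalized CPM are counts divided by the TMM-scaled library size (cpm in edgeR). SE is the log2 fold change over the square root of F. The p-values weigh the difference between culture conditions against the spread within each pair of libraries, estimated with help from all genes tested. They do not cover other cell lines. Replicates differed by more than sampling noise (chi-square over degrees of freedom 2.27 in 2-D and 3.92 in 3-D). The fit was tested on simulated data. Copies were found with minimap2 2.31-r1302 (at least 98% identity over 80% of a transcript). Transcription starts come from RefSeq, GRCh38.p14, and 14 members have no start there.

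Members and lists were chosen with earlier results of these data known. Any member could be named; values per library are given for called and core members. Alternatives were the likelihood ratio test, DESeq2 1.42.0, other scalings and filters, length and GC offsets, a replicate block, leaving out each library, and, chosen after seeing the data, summing copies.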

Additional observations from a re-analysis of the deposited data

How the results depend on the processing

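With edgeR's likelihood ratio test the members called lower were 3, the other translation genes called higher 3, and all genes called 651 higher and 488 lower. With library size alone these were 9 members lower, 2 other translation genes higher and 16 lower, and 514 and 1872 of all genes. Without a filter on low counts 8 members and 6 other genes were called lower, with length and GC offsets 3 members were lower, and with DESeq2 4 other genes were higher, and 509 and 285 of all genes. Leaving out each library in turn gave 5 to 14 members higher and 2 to 9 lower, 2 to 7 other genes higher and 2 to 8 lower, and 448 to 1324 and 326 to 1066 of all genes.

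The replicate numbers did not pair the libraries (correlation of the replicate differences -0.0079). With a replicate block, 9 members were called higher, 7 lower and 5 other genes lower, and EEF1D was called lower (-0.57).

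Of the 14 called members, 7 kept their call under all 10 alternatives and 4 leave-outs (EEF1A1, EIF3C, EIF3G, EIF4A3, EIF4EBP1, EIF4G1 and EIF5A), and none of the 14 changed direction. Of the 67 tested members, 18 turned in direction with library size alone, 5 with length and GC offsets, 2 each with at least 10 counts in every library and with copies summed, and 1 to 8 per leave-out, none of them called. Those on the list of core members, with library size alone, became -0.022 (EIF2AK1), -0.016 (EIF2AK2), -0.038 (EIF2AK3), -0.0035 (EIF2B1), -0.018 (EIF2B5), -0.059 (EIF3B), -0.049 (EIF4EBP2), -0.034 (EIF4G2), -0.042 (EIF4H), -0.043 (EIF5) and -0.030 (EIF6). With length and GC offsets they became 0.013 (EIF2S1), -0.053 (EIF3B) and 0.046 (EIF4E), with at least 10 counts in every library -0.0030 (EIF3B), and with copies summed 0.029 (EIF4A1) and 0.017 (EIF4E). Leave-outs spanned -1.80 to 1.22 for EEF1D, -0.12 to 0.051 for EIF2B2, -0.0090 to 0.016 for EIF3B, -0.10 to 0.059 for EIF4E, -0.061 to 0.041 for EIF4E2, -0.0076 to 0.039 for EIF4EBP2 and -0.024 to 0.093 for EIF6. Differences in paralogue share became 0.328 (EIF4E), 2.44 (EIF4EBP1) and 0.125 (EIF5A) percentage points without division by length, and spanned -0.250 to 0.00745 for EIF4A2, -0.518 to 0.363 for EIF4E and -0.0183 to 0.0977 for EIF5A over the leave-outs. The causes were not tested.

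With 2 libraries a group of 1 cell line, differences of about 0.1 on the log2 scale lie near the threshold. The 2-D libraries were deeper than the 3-D libraries and had a smaller mitochondrial share. Unknown strand and multi-mapping settings limit EIF3C, EIF4A1, EEF1A1, EEF1D and EEF1G, and RNA levels say nothing of protein amount or phosphorylation.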
